A study of Rattus norvegicus with 12 samples.

Results

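The genes described here are Il1rl1, which codes for ST2, and 8 genes that work with it in interleukin-1 (IL-1) receptor signalling. They are its ligand gene Il33, the receptor genes Il1r1 and Il1rap, the adaptor gene Myd88, the kinase genes Irak4, Irak1 and Irak2, and the ubiquitin ligase gene Traf6. They were taken by gene name, and all 9 were found among the 16002 gene IDs kept. The 9 genes were selected on levels and group differences measured in these libraries, and which of the group differences served is not recorded. Levels and differences of the 9 genes are therefore given as a description with a standard error (SE) and no p-value.

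RNA was sequenced from H9C2, an established rat line of heart-derived myoblasts, in 3 groups of 4 libraries. Control cells were wild type, were kept in normal oxygen and were given no lentivirus. Cells of the H/R group were wild type, were given a lentiviral vector with no insert, then spent 8 h at 1% oxygen and 2 h back in normal oxygen. Cells of the LITAF group, labelled LITAF overexpression in place of wild type, were given a vector that carries LITAF and had the same hypoxia and reoxygenation (H/R). All libraries are labelled as 1 batch. The vector and H/R cannot be told apart in any difference from control. The promoter of the vector is not given in the sources used here, nor is it stated whether the biological replicates came from separate cultures, so p-values may measure technical spread.

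ST2 is the receptor for interleukin-33, a nuclear cytokine that damaged cells release. It pairs with the accessory chain encoded by Il1rap, which also serves the IL-1 receptor Il1r1, and the paired receptors recruit MyD88, then the kinases IRAK4, IRAK1 and IRAK2, then TRAF6, which passes the signal to NF-kB and MAP kinases. In the heart Il1rl1 is known as a gene of strained muscle cells and fibroblasts, and the shed or secreted form of ST2 is a blood marker of cardiac stress. In rat fibroblasts the gene was described as a target of Fos (Fit-1). Counts per gene do not separate the soluble form of ST2 from the membrane form.

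Total counts were 16.9 to 20.7 M per library, and levels are counts per M reads (CPM) after TMM scaling, with SD over n = 4. Litaf was at 456 to 491 CPM in control, 549 to 618 CPM in H/R, and 2691, 2008, 2532 and 2120 CPM in LITAF libraries 1 to 4. The LITAF libraries thus all lay above the others in the gene their label names. Of the rows, 2.84 to 3.40% held a decimal value in control libraries, against 11.4 to 12.6% in the other 8 libraries. If control values were made in another way, this cannot be told apart from the difference between control and the rest. None of the 108 values of the 9 genes was a decimal. The 6 muscle progenitor markers in the table summed to 2195 to 6451 CPM in control, 507 to 641 CPM in H/R and 501 to 565 CPM in LITAF. Most of that gap was Myog, at 3870 ± 1924 CPM in control, 14.1 ± 6.30 CPM in H/R and 32.0 ± 9.61 CPM in LITAF. The other markers of the list differed in direction: against control, H/R had Myod1 2.93-fold lower, Cdh15 1.20-fold lower and Des 3.50-fold higher, and Myf5 was near 0. The 7 cardiac muscle markers summed to 178 to 410 CPM in control, 63.6 to 93.4 CPM in H/R and 148 to 205 CPM in LITAF, with Tnni3 and Ryr2 under 0.5 CPM in each library. Among them, Tnnt2 was 4.47-fold lower in H/R than in control and 2.49-fold higher in LITAF than in H/R, while Nkx2-5 was 2.41-fold higher in H/R than in control. The 7 fibroblast markers summed to 53845 to 70997 CPM in control, 25550 to 28484 CPM in H/R and 28771 to 37072 CPM in LITAF, with Pdgfra and Dcn under 0.5 CPM in each library. Against control, H/R had Col1a1 2.77-fold lower and Vim 3.04-fold higher. The leukocyte gene Ptprc and the endothelial genes Pecam1, Cdh5 and Kdr stayed under 0.5 CPM in each library. The 4 macrophage markers in the table summed to 0.612 to 1.48 CPM across the libraries, and the 5 endothelial ones to 0.0570 to 1.39 CPM. Of 8 markers of mast cells, ILC2 and T cells, 4 were in the table and summed to 23.9 to 28.6 CPM in control and 36.0 to 50.4 CPM in the other groups, most of it from Gata3 (21.0 CPM in control).

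Il1rl1 differed from control by more than any other of the 9 genes in both vector groups. Its level was 259, 288, 253 and 287 CPM in control, in the order of the library numbers. With H/R it read 23.4, 22.5, 22.2 and 23.4 CPM, and with LITAF 17.4, 11.0, 16.8 and 13.2 CPM. The 3 groups did not overlap, with control highest and LITAF lowest. Il1rl1 (ENSRNOG00000014835) was thus at 272 ± 18.1 CPM in control, 22.9 ± 0.642 CPM in H/R and 14.6 ± 3.04 CPM in LITAF. The difference of H/R from control was log2 -3.57 ± 0.14 (SE), 11.9-fold lower, and it ranked 54 from the bottom of the 11398 genes compared. LITAF against H/R stood at log2 -0.65 ± 0.13, 1.57-fold lower, at rank 213 from the bottom. LITAF against control stood at log2 -4.22 ± 0.14, 18.6-fold lower. In bulk RNA, fewer cells with the transcript and less transcript per cell cannot be told apart. LITAF libraries 1 and 3, which held the most Litaf, also held the most Il1rl1 of their group. Without LITAF library 2, the lowest in Il1rl1, the difference from H/R was log2 -0.54, and without library 1 it was log2 -0.73.

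The promoter of Il1rl1 is shown because this gene differed most from control. That of Myd88 is shown as well, and it is the only window with a match to the letters searched. The mean level of Myd88 was highest in the LITAF group, which also held for Il1rap, whose windows are not shown. Each run holds the 250 bases before a transcript start in RefSeq (GRCr8), 5′ to 3′ on the gene's strand. Capitals mark a match to TGANTCA, a loose form of the AP-1 motif that Fos and Jun proteins bind. That motif has C or G at the middle base, where the marked TGAATCA has A. Binding was not tested.
Il1rl1, chr9:50203388-50203637, plus strand: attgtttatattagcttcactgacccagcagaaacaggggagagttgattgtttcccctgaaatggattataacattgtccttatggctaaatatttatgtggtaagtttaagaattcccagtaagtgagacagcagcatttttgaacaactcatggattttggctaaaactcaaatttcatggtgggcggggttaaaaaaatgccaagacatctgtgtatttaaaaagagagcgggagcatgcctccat
Myd88, chr8:127956231-127956480, minus strand: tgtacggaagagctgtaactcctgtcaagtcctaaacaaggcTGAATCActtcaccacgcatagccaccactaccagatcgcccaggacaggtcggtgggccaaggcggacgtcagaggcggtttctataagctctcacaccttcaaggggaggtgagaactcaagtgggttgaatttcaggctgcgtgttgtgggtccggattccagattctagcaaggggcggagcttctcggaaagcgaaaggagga

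Of the 9 genes, 7 had a promoter in the table, Il33 and Il1rap with 2 starts each, and Irak2 and Traf6 had no entry. Both strands were searched for TGANTCA, for an NF-kB motif (GGG, any 2 bases, then TTTCC) and for ACGTG, a form of the hypoxia response element core. The other form of that core, GCGTG, was not searched, and it occurs in the Myd88 window shown. The only match to the letters searched in the 9 windows was TGAATCA in the Myd88 promoter, which begins 208 bases before the start. Among all 33469 promoters of this length, 6.34% held TGANTCA, 1.3% held the NF-kB motif and 16.6% held ACGTG. The Il1rl1 window held none of the 3 sets of letters, which says only that they are not in these 250 bases. Only 1 start was listed for Il1rl1, and any other start of the gene was not searched.

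Transcripts of the ligand gene Il33 (ENSRNOG00000016456) were at or near 0 throughout. The count was 0 in all 4 control and all 4 H/R libraries, and it was 2, 0, 2 and 1 in LITAF libraries 1 to 4. A count of 0 allows up to 0.153 to 0.173 CPM in a library (3 counts, counting error only). Il33 did not pass the low-count filter, and no fold is given for 5 reads in a group. The receptor gene was thus well measured in cells with hardly a read of its ligand.

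Il1r1 (ENSRNOG00000014504), the signalling receptor for IL-1, overlapped between all groups. It read 37.8, 61.8, 73.0 and 80.9 CPM in control, 49.4, 50.1, 51.4 and 50.0 CPM in H/R, and 62.8, 44.1, 56.5 and 52.8 CPM in LITAF. The control libraries were spread over more than the whole range of the other groups. The differences were log2 -0.33 ± 0.18 for H/R against control and 0.11 ± 0.18 for LITAF against H/R.

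Il1rap (ENSRNOG00000001928), the accessory chain that both receptors share, was higher in both vector groups than in control. It read 11.5, 11.7, 11.0 and 7.60 CPM in control, 25.4, 22.7, 24.8 and 17.8 CPM in H/R, and 25.2, 22.1, 30.2 and 24.5 CPM in LITAF. No control library reached the others, while H/R and LITAF overlapped. H/R against control stood at log2 1.12 ± 0.16, 2.17-fold higher, and LITAF against H/R at log2 0.17 ± 0.15. Beside control, H/R thus had Il1rl1 lower and its accessory chain higher. Il1r1 lay between control library 1 and the other control libraries.

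**Figure D1:**
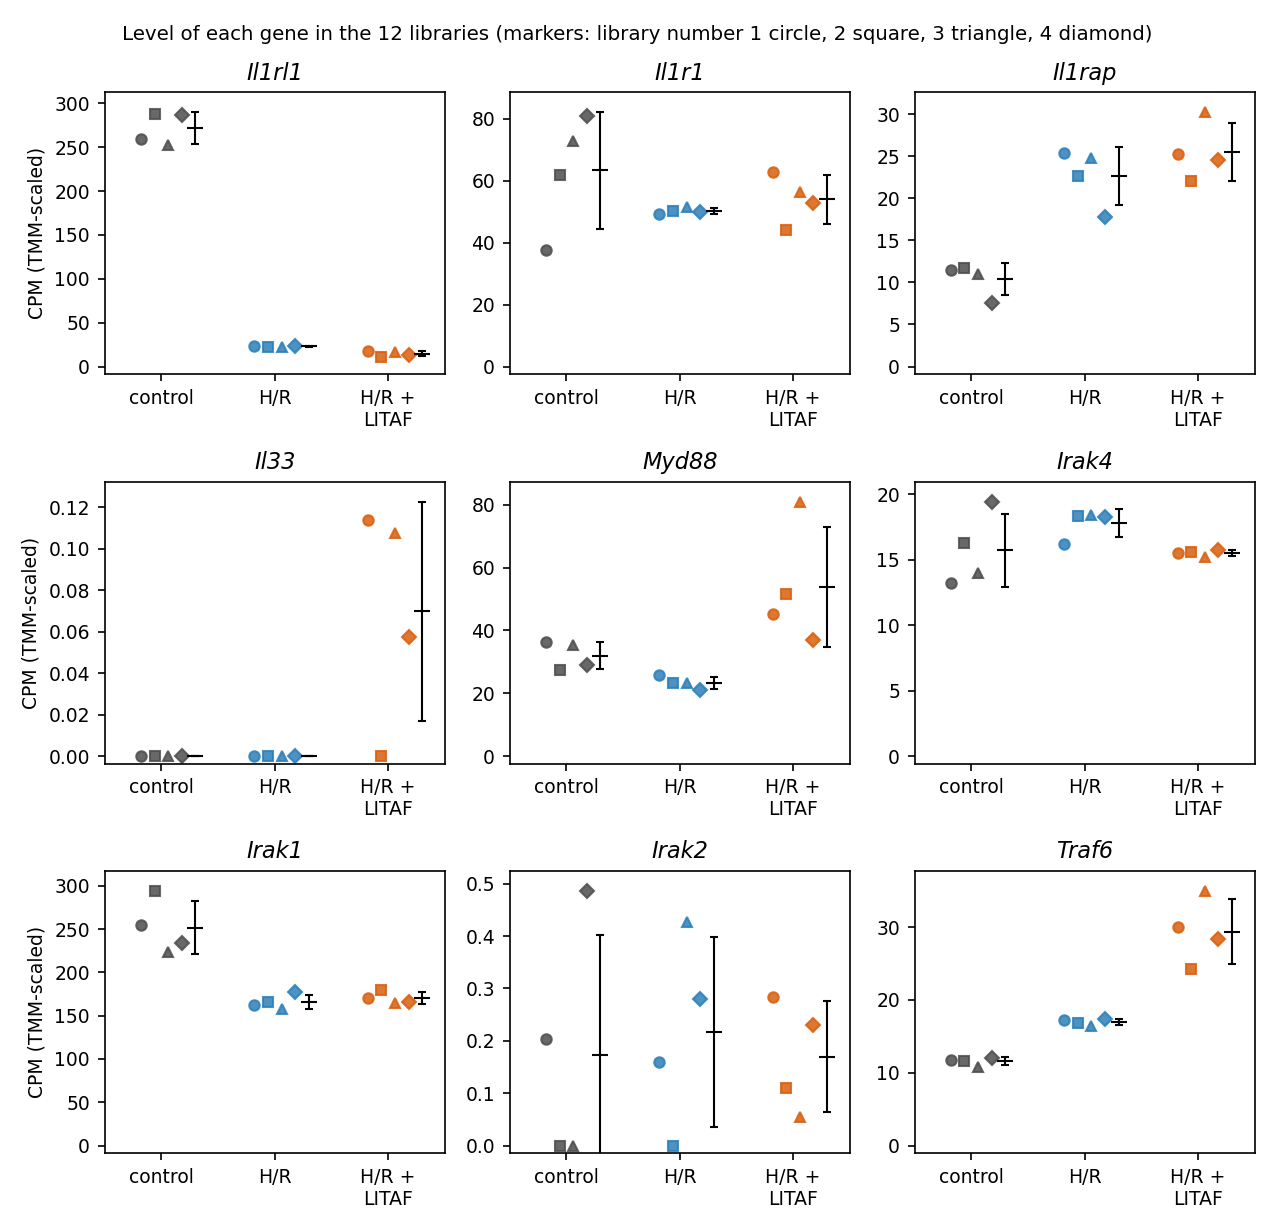
Level of the 9 genes in each library (CPM after TMM scaling, linear axis, own scale per gene), with the mean and SD of each group of 4 beside the points (the lower SD bar of Irak2 in control is cut off below 0). Il1rl1 lies at 253 to 288 CPM in control and 11.0 to 17.4 CPM with LITAF, Traf6 lies in 3 separate steps from 10.8 to 34.9 CPM, and Il33 has reads in 3 LITAF libraries only.

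The neighbours of Il1rl1 were compared because genes of the IL-1 receptor family lie side by side on rat chromosome 9, and position was not used to choose the 9 genes. In the RefSeq order (GRCr8) the receptor genes run Il1r2, Il1r1, Il1rl2, Il1rl1, Il18r1 and Il18rap, with a histone gene between the first pair. The 3 that are not among the 9 genes and passed the filter all fell after H/R against control. Il18rap, the accessory chain of the interleukin-18 receptor, went from 47.6 ± 6.78 to 14.1 ± 0.631 CPM, log2 -1.76 ± 0.11 (edgeR quasi-likelihood fit, adjusted p = 1.74e-09). Il1rl2, the receptor for interleukin-36, went from 4.65 ± 0.903 to 1.33 ± 0.256 CPM, log2 -1.80 ± 0.20, adjusted p = 1.06e-06 by the same edgeR test. The interleukin-18 receptor gene Il18r1 went from 1.62 ± 0.33 to 0.738 ± 0.225 CPM, log2 -1.13 ± 0.28, adjusted p = 0.00211 by edgeR. The control libraries did not overlap the H/R libraries for any of the 3 genes. Of all genes, 31.8% were past the threshold and lower in this comparison, and 28.3% were lower without overlap. Il1r1, in the same cluster, overlapped between control and H/R through control library 1 alone (log2 -0.33 ± 0.18). Whether the cluster changed as a unit was not tested.

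None of these 3 neighbours passed the edgeR test for LITAF against H/R, and none had an unadjusted p under 0.05 there or passed with DESeq2. Il18rap stood at log2 0.09 ± 0.12, Il1rl2 at 0.12 ± 0.23 and Il18r1 at -0.15 ± 0.31, beside -0.65 ± 0.13 for Il1rl1. Whether Il1rl1 differs from its neighbours in this was not tested. Il1r2, the decoy receptor, had 1 read in each of 3 H/R libraries and none in the other 9. The next genes on the far side of Il18rap, Slc9a4 and Slc9a2, were under 0.5 CPM on average in each group. For H/R against control the muscle genes Myog (log2 -8.10 ± 0.58), Tnnt2 (-2.16 ± 0.23) and Myod1 (-1.55 ± 0.17) and the collagen gene Col1a1 (-1.47 ± 0.11) fell. Des (log2 1.81 ± 0.14), Vim (1.60 ± 0.13) and Nkx2-5 (1.27 ± 0.17) rose. The part of these changes in those of Il1rl1 and its neighbours was not tested.

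**Figure D2:**
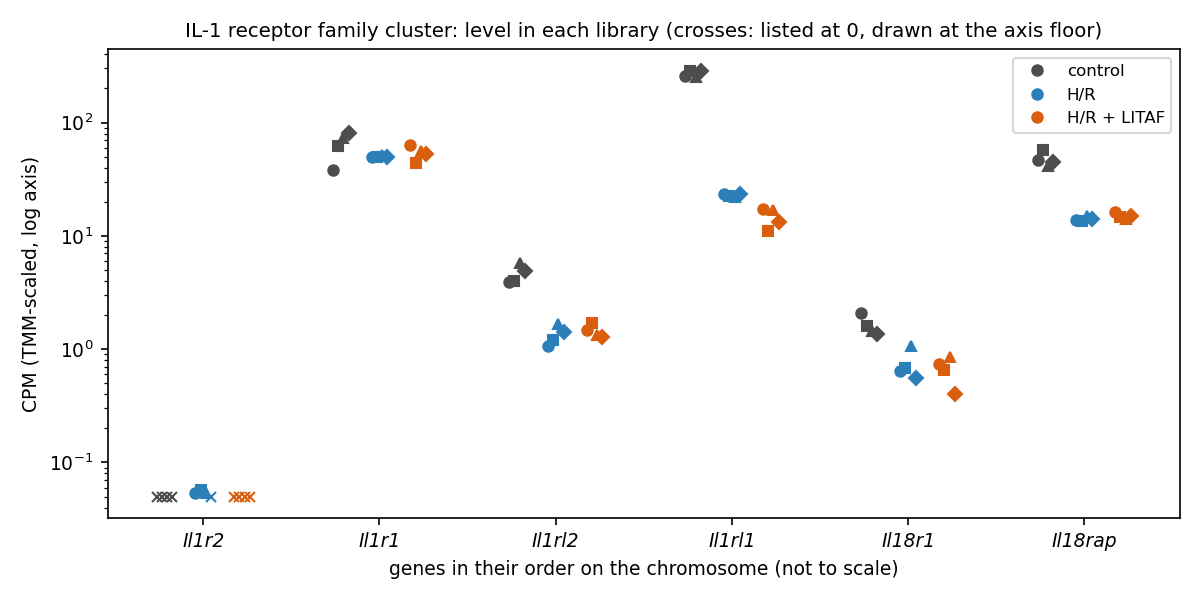
CPM in each library (log axis) of the 6 genes of the receptor cluster, in chromosome order, by group; crosses are libraries listed at 0. Il1rl2, Il1rl1, Il18r1 and Il18rap sit lower in H/R and LITAF than in control, and only Il1rl1 has all LITAF libraries below all H/R libraries.

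Among the intracellular genes, Myd88 and Traf6 were higher with LITAF than with the empty vector, while Irak1 and Irak4 differed little between these groups. Myd88 (ENSRNOG00000013634), the adaptor that links the receptors to the kinases, read 36.1, 27.5, 35.2 and 28.9 CPM in control and 25.8, 23.1, 23.2 and 21.1 CPM in H/R. In LITAF libraries 1 to 4 it read 45.1, 51.6, 80.9 and 37.1 CPM. All LITAF libraries lay above all others, and library 3 stood highest. LITAF against H/R was log2 1.20 ± 0.19, 2.30-fold higher, and log2 0.93 without LITAF library 3. H/R against control was log2 -0.45 ± 0.19, with groups that did not overlap, and ranged from -0.52 to -0.33 over the alternatives.

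Traf6 (ENSRNOG00000004639), the ubiquitin ligase downstream of the kinases, was higher in each group than in the one before. It read 11.8, 11.7, 10.8 and 12.1 CPM in control, 17.3, 16.8, 16.5 and 17.3 CPM in H/R, and 30.0, 24.2, 34.9 and 28.3 CPM in LITAF. The 3 groups did not overlap. H/R against control was log2 0.55 ± 0.12 (1.47-fold higher) and LITAF against H/R was log2 0.79 ± 0.11 (1.73-fold higher). LITAF against control was log2 1.34 ± 0.12, 2.53-fold higher.

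Irak1 (ENSRNOG00000060869) was lower in both vector groups. It read 255, 294, 224 and 234 CPM in control, 162, 166, 158 and 177 CPM in H/R, and 171, 180, 164 and 165 CPM in LITAF. No vector library reached the lowest control library, and the vector groups overlapped each other. H/R against control was log2 -0.60 ± 0.10, 1.52-fold lower, and LITAF against H/R was log2 0.04 ± 0.10.

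Irak4 (ENSRNOG00000005965), the kinase that MyD88 binds first, was nearly level. It read 13.2, 16.3, 13.9 and 19.4 CPM in control, 16.2, 18.4, 18.4 and 18.3 CPM in H/R, and 15.5, 15.6, 15.2 and 15.7 CPM in LITAF. The LITAF libraries all lay below the H/R libraries by a small margin, log2 -0.20 ± 0.12. H/R against control was log2 0.18 ± 0.12, and the control libraries spanned both vector groups. Irak2 (ENSRNOG00000021817) had 0 to 9 reads per library, 13 in the control group, 16 in H/R and 12 in LITAF, and did not pass the filter.

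**Figure D3:**
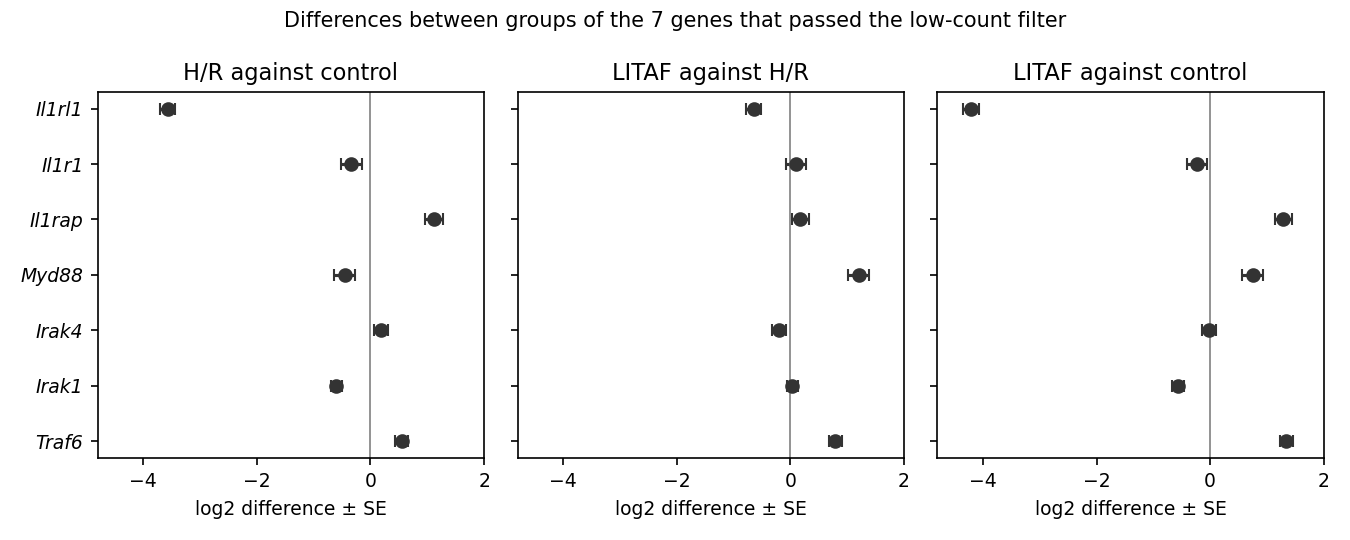
Log2 difference between groups (point) with its SE (bar) for the 7 of the 9 genes that passed the low-count filter. Il1rl1 is left of 0 in all 3 comparisons, and Traf6 is right of 0 in all 3; comparisons share groups and are not independent.

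Counted over the 9 genes, 7 passed the filter and 2, Il33 and Irak2, did not. For LITAF against H/R, 3 of the 7 were past an adjusted p of 0.05 in the edgeR fit, beside 4.88% of all 11398 genes tested. Of these, Myd88 and Traf6 were higher (3.73% of all genes) and Il1rl1 lower (1.15%). For H/R against control it was 5 of 7 beside 63.6% of all genes, and for LITAF against control 5 of 7 beside 64.6%. Groups did not overlap for 4 of 7 genes in LITAF against H/R (18.9% of all genes), with 2 higher (10.6% of all genes) and 2 lower (8.3%), for 5 of 7 in H/R against control (58.6%) and for 5 of 7 in LITAF against control (52.1%). The choice of the 9 genes drew on these values, so nothing is read from these counts. The H/R and LITAF comparisons share libraries. The call for Myd88 in H/R against control was lost with library totals, with upper-quartile scaling and in 7 of the 8 fits that left out a library, all but that without control library 2. In the same comparison Irak4 gained a call with library totals, with upper-quartile scaling and without control library 4. Without control library 1, Il1r1 gained a call in H/R against control and in LITAF against control.

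For the rest of the pathway, 8 lists with 139 entries were used, of which 122 were in the table, 120 were kept and 92 passed the filter. The lists were chosen with earlier results of these data known. Counts, medians and p-values of list genes are therefore a description, and no enrichment is read from them. For LITAF against H/R, 22 of the 92 genes rose and 70 did not pass, beside 3.73% of all genes higher in that comparison. None fell by edgeR's test, 1 was lower at an unadjusted p under 0.05, and 1 fell with DESeq2. The median over the 92 genes was log2 0.13, against -0.01 over all genes. For H/R against control, 28 rose, 31 fell and 33 did not pass, with a median of log2 -0.12 against 0.01 over all genes. For LITAF against control, 37 rose, 28 fell and 27 did not pass. The shares past the test in these last comparisons, of genes higher and lower, were 31.8% and 31.8% of all genes for H/R and 32.0% and 32.6% for LITAF.

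Brakes on IL-1 and Toll-like receptor signalling rose in 5 of 13 measured genes with LITAF against H/R, beside 3.73% of all genes. None of the 13 fell by edgeR's test, but 1 was lower at an unadjusted p under 0.05, and DESeq2 called 1 lower. Tnfaip3, which codes for the TRAF6-editing enzyme A20, read 22.7, 21.1, 19.7 and 22.9 CPM in H/R and 103, 77.0, 75.5 and 82.2 CPM in LITAF. That is log2 1.96 ± 0.13, adjusted p = 2.17e-07 by edgeR, with no overlap. The RNase gene Zc3h12a, which destroys inflammatory transcripts, rose 2.14-fold, from 17.7 ± 1.90 to 37.9 ± 2.54 CPM. Zfp36, whose protein also speeds decay of cytokine transcripts, rose 2.18-fold, from 72.5 ± 4.09 to 158 ± 9.96 CPM. Against control, H/R had 3 of the 13 higher and 4 lower, beside 31.8% of all genes in each direction. Nfkbib, an inhibitor of NF-kB, was up from 8.81 ± 2.02 to 25.1 ± 2.40 CPM and Tnfaip3 down from 34.9 ± 5.26 to 21.6 ± 1.5 CPM.

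Of genes that IL-1 induces in stromal cells, 5 of 14 measured rose with LITAF against H/R, beside 3.73% of all genes. The neutrophil chemokine gene Cxcl1 read 7.45, 6.27, 5.44 and 6.62 CPM in H/R and 31.0, 21.2, 19.1 and 22.1 CPM in LITAF, log2 1.86 ± 0.17, adjusted p = 5.64e-06 by edgeR. Lif, a cytokine gene, rose 3.04-fold from 54.8 ± 3.67 to 167 ± 10.8 CPM. The monocyte chemokine genes Ccl2 and Ccl7 rose 4.18-fold and 2.85-fold. In control they had stood at 6.75 ± 2.33 and 3.99 ± 0.758 CPM, in H/R at 1.51 ± 0.662 and 1.87 ± 0.586 CPM and in LITAF at 6.37 ± 1.68 and 5.31 ± 1.12 CPM. Beside control, 6 of the 14 fell with H/R and 3 rose, with 31.8% of all genes in each direction. Vcam1, an adhesion molecule gene, fell 5.29-fold, Tnfaip6 fell 3.64-fold and Csf1 3.08-fold, while Il6 rose 2.89-fold.

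The relay genes between the receptors and the IKK and MAP kinases gave no call for LITAF against H/R. None of 26 passed edgeR's test in either direction there, beside 4.88% of all genes. At an unadjusted p under 0.05, 2 were higher and 0 lower, and DESeq2 called 0. The median of the list was log2 0.10. After H/R against control 7 rose and 8 fell, beside 31.8% of all genes in each direction. Tollip, which restrains IRAK1, went from 83.1 ± 14.8 to 178 ± 6.99 CPM, and Sqstm1, a scaffold that binds TRAF6, from 188 ± 36.0 to 776 ± 64.0 CPM. Ecsit, which binds TRAF6 as well, rose 2.05-fold, and Map2k6, a p38 kinase activator, fell 4.79-fold to 0.913 ± 0.372 CPM.

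**Figure D4:**
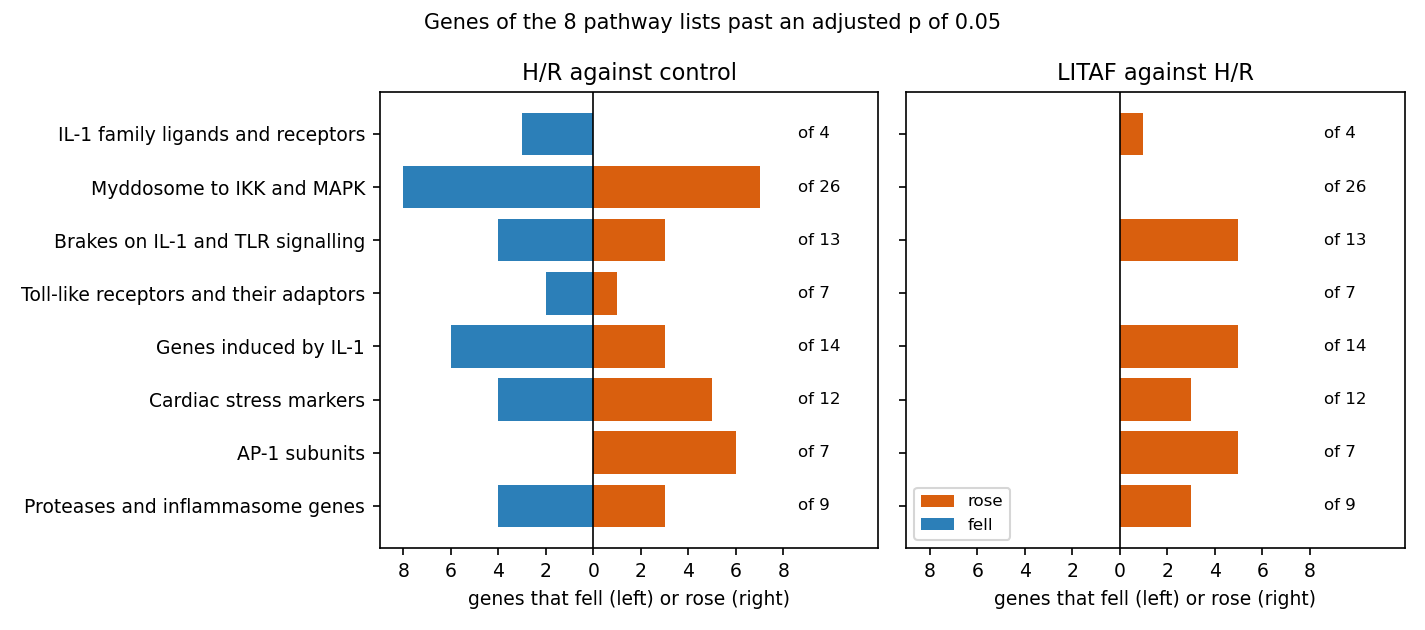
Number of genes in each of the 8 lists that rose (right) or fell (left) past an adjusted p of 0.05, with the number measured at the right. Calls for LITAF against H/R lie on the right side only, and none is in the relay list or among Toll-like receptors. Of all genes, 4.88% were called in that comparison.

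Toll-like receptors and their adaptors, which also signal through MyD88, had no call among 7 measured genes for LITAF against H/R by edgeR or DESeq2, with 1 higher and 0 lower at an unadjusted p under 0.05. By edgeR, 4.88% of all genes were called in that comparison. After H/R against control the co-receptor gene Cd14 fell from 15.8 ± 3.63 to 8.44 ± 0.730 CPM (log2 -0.91 ± 0.15) and Tlr6 fell 1.87-fold. The third call in this list was a rise of Ly96, the partner of TLR4 (log2 0.64 ± 0.26, edgeR adjusted p = 0.0411). It was lost with DESeq2 (adjusted p = 0.0507), in the fit of the 2 groups alone (edgeR adjusted p = 0.0576) and without control library 1, 2 or 3 or H/R library 2 or 4 (0.0656 to 0.128).

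Among the other ligands, Il1a, Il1rn and Il36g had at most 2 reads in any library, and Il18 was the only one that passed the filter. Il1b, Il36a, Il36b, Il36rn and Il1f10 were not among the deposited rows, so their levels are not known. Il18, a cytokine matured by caspase-1, read 7.19, 1.77, 3.47 and 2.24 CPM in H/R and 21.8, 18.7, 19.4 and 19.2 CPM in LITAF, log2 2.42 ± 0.50, adjusted p = 0.0115 by edgeR. The call was lost without the low-count filter (adjusted p = 0.065) and without H/R library 2, 3 or 4 or LITAF library 2 or 4 (0.0553 to 0.0758), and DESeq2 gave no adjusted p. In the list of proteases and inflammasome genes, Pycard, Nlrp3 and Gsdmd rose among 9 measured, by 3.83-fold, 2.43-fold and 1.73-fold (3.73% of all genes rose). After H/R against control the inflammatory caspase gene Casp4 rose from 5.00 ± 0.510 to 40.4 ± 3.35 CPM.

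AP-1 subunits were listed because Il1rl1 is a known Fos target in rat fibroblasts. Of 7 measured, 6 rose after H/R against control and 5 with LITAF against H/R, and none fell in either by edgeR, by DESeq2 or at an unadjusted p under 0.05. By edgeR, 31.8% of all genes were higher after H/R and 3.73% with LITAF against H/R. Fos read 32.6, 28.4, 24.9 and 26.7 CPM in control, 47.5, 40.6, 39.8 and 40.3 CPM in H/R and 128, 104, 124 and 102 CPM in LITAF. Its groups stepped up without overlap, opposite to the order of Il1rl1. Fosb went from 14.5 ± 0.879 to 48.9 ± 3.99 to 105 ± 8.69 CPM and Junb from 129 ± 11.9 to 171 ± 18.3 to 389 ± 34.2 CPM. Whether these genes bear on Il1rl1 was not tested.

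**Figure D5:**
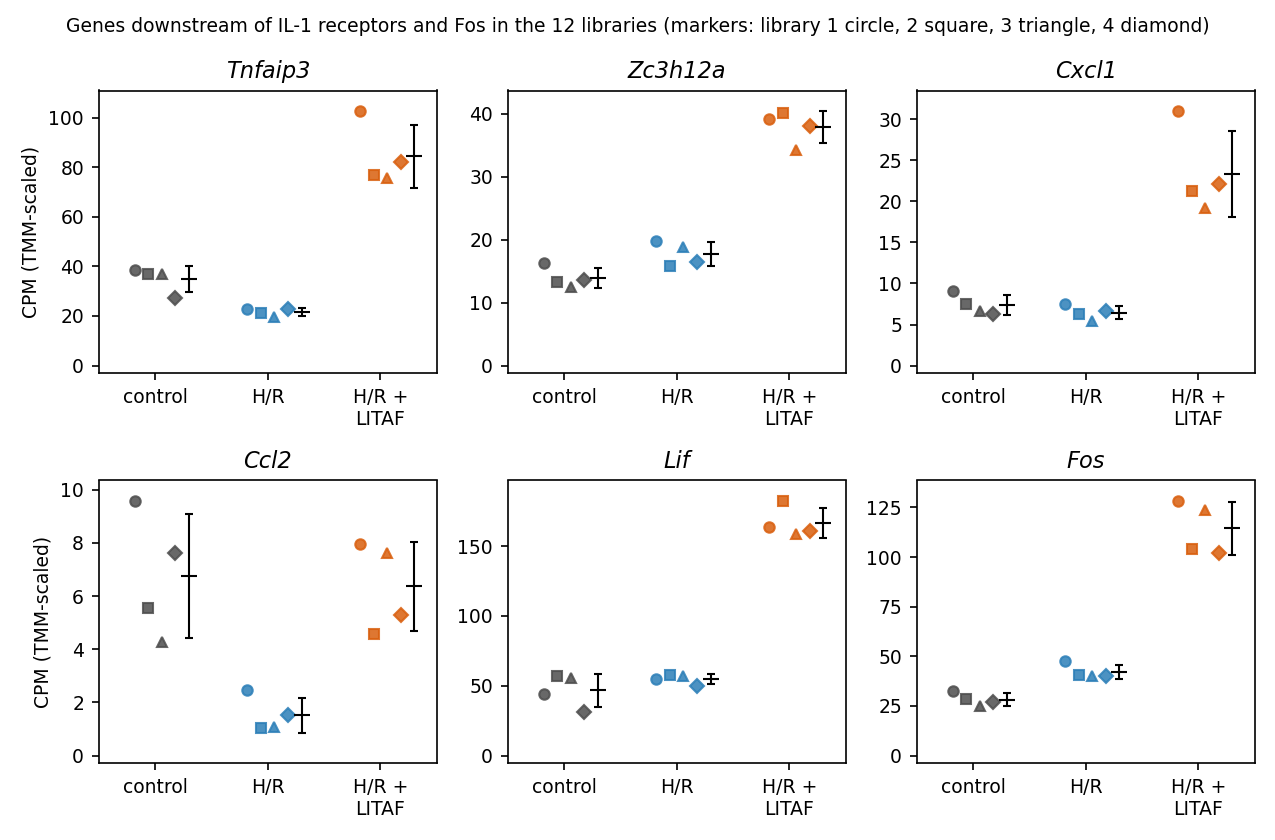
CPM in each library (linear axis, own scale per gene) of Tnfaip3, Zc3h12a, Cxcl1, Ccl2, Lif and Fos, with mean and SD of each group of 4. In all 6 genes the LITAF libraries lie above the H/R libraries, while H/R lies below control for Tnfaip3 and Ccl2 and above it for Fos.

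Other cardiac stress markers went both ways after H/R. Of 12 measured, 5 rose and 4 fell after H/R against control, beside 31.8% of all genes higher and 31.8% lower. With LITAF against H/R 3 rose, beside 3.73% of all genes. Among these 3, Ccn2 lost its call in 8 of the alternatives. The natriuretic peptide genes Nppa and Nppb, classical markers of heart strain, had at most 3 reads in any library. Fgf21, a stress hormone gene, went from 0.106 CPM in control (8 reads in the group) to 3.51 ± 0.598 CPM after H/R. Its control level lies under the 3-count floor of 0.153 to 0.167 CPM in a control library. Fstl1, a secreted glycoprotein gene, fell 2.6-fold. Ccn1, a matrix protein gene, was at 335 ± 33.4 CPM in control, 292 ± 7.30 CPM in H/R and 884 ± 92.5 CPM in LITAF, a 3.03-fold rise over H/R (adjusted p = 9.95e-08 by edgeR).

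Among the genes whose log2 CPM followed Il1rl1 most closely over the 12 libraries were Nr2f2, Ncapd3, Nup107, Akap5, Cavin2, Mcm4 and Parpbp, with Pearson r of 0.995 to 0.998 among 10270 genes ranked. In all, 733 genes had r above 0.95. Within the 8 libraries of the vector groups the likeness was lower for most of them. There Nup107, a nuclear pore gene, had r = 0.995, Mcm4 0.961, Nr2f2 0.939, Ncapd3 0.903, Parpbp 0.902, Cavin2 0.885 and Akap5 0.878. Nr2f2, an orphan receptor gene, read 305 ± 16.4, 61.5 ± 7.05 and 46.9 ± 6.77 CPM in control, H/R and LITAF. These are descriptions over libraries that share their groups.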

How the data were processed

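RNA was measured in 12 polyA-enriched libraries. The authors deposited estimated counts of reads per gene, named raw counts per the file headers. DESeq2 and edgeR appear, with no role, per the submitters' processing notes. Aligner, quantifier, build and strand use: not given in the sources used here. Of 16204 rows, 258 shared an ID with another; 56 IDs with identical rows kept 1, and 72 with conflicting rows were left out (Ticam1 and Fosl1 among the list genes). Counts were rounded, filtered by filterByExpr (11398 genes left) and TMM-scaled. All 12 libraries entered 1 edgeR 4.0.16 quasi-likelihood fit (R 4.3.3), tested two-sided with Benjamini-Hochberg adjustment over all genes, threshold 0.05. The SE is the log2 difference divided by the square root of F. The common biological coefficient of variation was 14.5%, and counting error dominates at a few reads. The fit was tested on simulated counts.

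Same-numbered control and H/R libraries deviated together (r = 0.302 to 0.568 across genes), so these numbers pair the libraries; those of H/R and LITAF (0.0542 to 0.197) and of control and LITAF (0.0487 to 0.100) do not. Members and lists were chosen with earlier results of these data known. The genes named are the 9 members, Litaf, the filtered IL-1 family genes, up to 4 genes per other list and comparison with the smallest p among those past the threshold, and the 8 most like Il1rl1, of which some results are not reported here; markers and neighbours are given as checks, and Nppa and Nppb were added after their values were seen. Alternatives were DESeq2 1.42.0, no filter, other scalings, 2 groups alone, the replicate block and each library left out. Promoters came from RefSeq tables matched by symbol.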

Additional observations from a re-analysis of the deposited data

Results flagged for a closer look

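A library standing apart from the other 3 of its group (Dixon's test) was found in 6 of 162 groups of gene values, and chance flags about 1 in 20. Among the 9 genes this was Irak4 in H/R library 1, at 16.2 CPM against 18.3 to 18.4 CPM in the others. Among the list genes, Il18 was at 8.17 CPM in control library 2 against 1.24 to 1.44 CPM, and Tlr6 at 1.61 CPM in the same library against 3.26 to 3.45 CPM. Control library 4 had Tnfaip3 at 27.1 CPM against 36.8 to 38.7 CPM and Ccn1 at 385 CPM against 316 to 320 CPM. H/R library 1 had Fos at 47.5 CPM against 39.8 to 40.6 CPM.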

How the results depend on the processing

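None of the 344 recomputed differences of Litaf and the 7 of the 9 genes that passed the filter moved by as much as that gene's largest group SD on the log2 scale, and none that had passed the test changed sign. The count of pathway genes that fell with LITAF against H/R was 0, but 1 with DESeq2, 1 with upper-quartile scaling and 0 to 2 over the fits without a library (2 without LITAF library 1); the cause was not tested. The other 126 recomputed counts stayed within 1.5 times. Over the fits without a library, the 9 genes gave 4 to 5 calls for H/R against control and 5 to 6 for LITAF against control, and rises in the pathway for LITAF against H/R ran from 15 (without H/R library 3) to 22. The difference of Il18r1 for LITAF against H/R ran from -0.30 to 0.0845, above 0 without H/R library 3 (0.0845) and without LITAF library 4 (0.02). That of Il18 for H/R against control ran from -0.28 without H/R library 1 to 1.43 without control library 2, where it passed the test. Of 85 results of named list genes, 8 changed their call in some alternative. For LITAF against H/R these included Ccn2 (lost in 8 alternatives), Jun (lost in 3) and Nfkbie (lost in 3), which are counted among the rises of their lists. Library totals and upper-quartile scaling moved the median of all genes by log2 0.13 and 0.12 for H/R against control. Over all genes, 76.4% of calls for LITAF against H/R were higher, against 61.0% and 66.5% with these scalings. With a replicate block, pathway genes that rose and fell numbered 24 and 0 for LITAF against H/R, 30 and 32 for H/R against control and 40 and 28 for LITAF against control. In the 8 paired control and H/R libraries alone, an alternative added after seeing the data, they numbered 32 and 34, and the block changed no call of a named gene. Numbers matched best with their own in 4 of 4 control and H/R pairs, 0 of 4 H/R and LITAF pairs and 1 of 4 control and LITAF pairs. Depth limits Il33 (5 reads in all) and Irak2 (0 to 9 reads per library), for which no difference was computed.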
